A study of Mus musculus with 4 samples.

Results

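A set of 10 genes of the neural and anterior ectoderm lineage was followed across RNA-seq libraries of differentiating female mouse embryonic stem cells (mESCs). These were Gbx2, Sox1, Pax6, Zic1, Zic2, Nes, Tubb3, Map2, Ncam1 and Syn2, out of 25965 genes listed. The set was assembled by gene symbol, and Gbx2 and Syn2 were included because their difference between the knockdown and control libraries was already known. For these 2 genes that difference is therefore given as a description. Of the genes, 9 carried their own symbol in the deposited values and Map2 was listed under its older symbol Mtap2 at the same position. Levels are given as log2 CPM (reads of a gene scaled to the library total, on a log2 scale). A mean log2 CPM of at least 0 over the libraries served as the filter on low values, which 8 of the 10 and 13264 of all genes passed, and Sox1 and Zic1 did not.

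The cells were an FVB/CAST F1 mESC line, expanded in 2i medium and then weaned into DME HiHi, a serum medium that directs the cells to no particular lineage. There was 1 library of undifferentiated cells (day 0) and 3 libraries at day 6. The day 6 cells had all been transduced with a short hairpin RNA on day 2 and selected with puromycin from day 3, and each culture carried a non-silencing hairpin, named Nons, or 1 of a pair of hairpins that target Smarca4, named Smarca4.4 and Smarca4.6. Smarca4 is an ATPase of the BAF complex, which moves nucleosomes. The comparison of each knockdown library with Nons asks whether differentiation genes are altered when Smarca4 is reduced, and the comparison of Nons with day 0 shows how the same genes move as differentiation proceeds. Groups follow the sample titles, since the genotype label calls all 3 day 6 libraries a Smarcc knockdown, the Nons library among them. Each group holds 1 library, so the spread between replicates is unknown and no test was made. The intervals given are exact 95% intervals for the counting of reads alone, and reads are not independent molecules.

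Depth was 18599402 reads at day 0 and between 36495575 and 47143738 reads at day 6. The limit that a count of 0 allows is 3 reads, which corresponded to 0.161 CPM at day 0 and to between 0.0636 and 0.0822 CPM at day 6. The targeted gene Smarca4 stood at a log2 CPM of 7.84 in Nons, and at 57.3% and 75.8% of that level in the Smarca4.4 and Smarca4.6 libraries. The cells are labelled female, but the Y-linked genes Ddx3y, Uty and Eif2s3y had reads in all 3 day 6 libraries and none at day 0, and the part of this in the values below was not tested.

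The hairpins each pair with 1 site in Smarca4, and their guide strands are shown because the knockdown rests on them. The 22-base guides were read from the study's oligonucleotide list, 5′ to 3′, with bases 2 to 8 (the seed) in capitals.
Smarca4.4: tTTATTACtgtctgactccagt
Smarca4.6: tTGCATAAtagtgttcatcagt
The site of Smarca4.4 lay on chromosome 9 at 21703327 to 21703348 (mm10, plus strand), in exon 34 and outside the coding sequence of the longest matching transcript. The site of Smarca4.6 lay at 21670504 to 21670525, in coding exon 22. Each site matched transcripts of Smarca4 and of no other gene in the annotation, and the Nons guide matched no transcript. Only full 22-base matches were sought, so sites with mismatches or with the seed alone could not appear.

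In the embryo, the anterior ectoderm becomes neural plate when signals that would direct it to epidermis or mesoderm are held off. Sox1 is among the first transcription factors of the neural plate, Pax6 marks neural progenitors of the forebrain, spinal cord and eye, and Gbx2 sets the anterior hindbrain side of the midbrain-hindbrain boundary and is also expressed in mESCs. Zic1 and Zic2 are zinc finger factors of the dorsal neural tube, and Zic2 is active in pluripotent cells too. Nes (nestin) is an intermediate filament protein of neural progenitors that is also made by muscle precursors and other dividing cells, Tubb3 is a beta-tubulin typical of neurons, and Map2 binds microtubules in dendrites. Ncam1 is a cell adhesion molecule and Syn2 (synapsin II) coats synaptic vesicles.

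Promoters of Gbx2, Sox1 and Syn2 are shown since these 3 genes were at least 2-fold different from Nons in both knockdown libraries, the first 2 above it and Syn2 below it. Each is the 300-base window from 250 bases before to 50 bases after the RefSeq start site (GRCm38.p6, the assembly of mm10), 5′ to 3′ on the gene's strand, with every CG pair in capitals.
Gbx2, chr1:89931127-89931426, minus strand: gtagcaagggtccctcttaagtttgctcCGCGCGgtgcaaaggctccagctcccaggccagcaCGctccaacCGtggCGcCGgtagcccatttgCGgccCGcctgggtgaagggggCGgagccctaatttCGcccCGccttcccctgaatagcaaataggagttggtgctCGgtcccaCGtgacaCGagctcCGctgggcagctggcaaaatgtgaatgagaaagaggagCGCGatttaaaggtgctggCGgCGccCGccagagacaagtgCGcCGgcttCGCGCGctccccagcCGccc
Sox1, chr8:12395269-12395568, plus strand: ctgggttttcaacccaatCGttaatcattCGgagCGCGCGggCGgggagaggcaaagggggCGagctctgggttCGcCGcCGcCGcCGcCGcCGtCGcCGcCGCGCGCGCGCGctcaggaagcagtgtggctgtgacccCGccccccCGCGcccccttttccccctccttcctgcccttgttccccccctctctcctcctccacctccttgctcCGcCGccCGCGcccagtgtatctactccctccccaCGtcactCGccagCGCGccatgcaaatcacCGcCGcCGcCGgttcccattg
Syn2, chr6:115134652-115134951, plus strand: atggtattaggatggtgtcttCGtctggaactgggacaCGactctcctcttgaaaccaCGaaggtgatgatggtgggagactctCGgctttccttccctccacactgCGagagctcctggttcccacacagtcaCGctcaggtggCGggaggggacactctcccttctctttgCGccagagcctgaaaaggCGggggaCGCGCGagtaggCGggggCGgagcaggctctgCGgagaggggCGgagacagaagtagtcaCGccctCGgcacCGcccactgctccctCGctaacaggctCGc
The windows held 27, 37 and 21 CG pairs for Gbx2, Sox1 and Syn2, against a median of 7 over 32851 promoters. All 3 were thus rich in CG pairs, whichever way the gene differed. Windows of the other genes with a listed start were also above the median of 7: Map2 had 37, Zic1 31, Tubb3 26, Nes 18, and Pax6 18 and 16. The CG count thus did not set the 3 genes apart. A second RefSeq start of Syn2 (chr6:115238744-115239043) had 5 CG pairs. The homeobox core TAATTA, searched on both strands, was in none of the 4 windows of Gbx2, Sox1 and Syn2 and in 5.29% of all promoters.

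From day 0 to day 6 in Nons the neural genes went both ways. At day 6, 6 of the 10 were lower (Gbx2, Sox1, Pax6, Zic2, Tubb3 and Ncam1), 3 were higher (Nes, Map2 and Syn2), and the counting intervals of these 9 differences excluded 0. In bulk libraries such as these, fewer cells of a type and less RNA per cell cannot be told apart. For Zic1, with 0 reads at day 0 and 4 in Nons, the Nons level lay below the 3-read limit of the day 0 library and no direction is given. Over all genes that passed the filter the interval excluded 0 for 82.9%. At least 2-fold lower were Gbx2, Sox1 and Ncam1, and at least 2-fold higher were Nes and Map2, against 12.3% and 19.6% of the genes that passed the filter, in the same directions. Sox1 did not pass it, and its difference of -2.04 (-3.41 to -0.75) rests on 15 reads at day 0 and 9 in Nons. Without the filter 41.8% of listed genes were 2-fold lower, values written for 0 reads included, and 20.5% of those with reads in either library. The median difference of the 10 genes was -0.72, or -0.87 with Zic1 held at the 3-read limit at day 0, and that of all genes was 0.031.

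**Figure D1:**
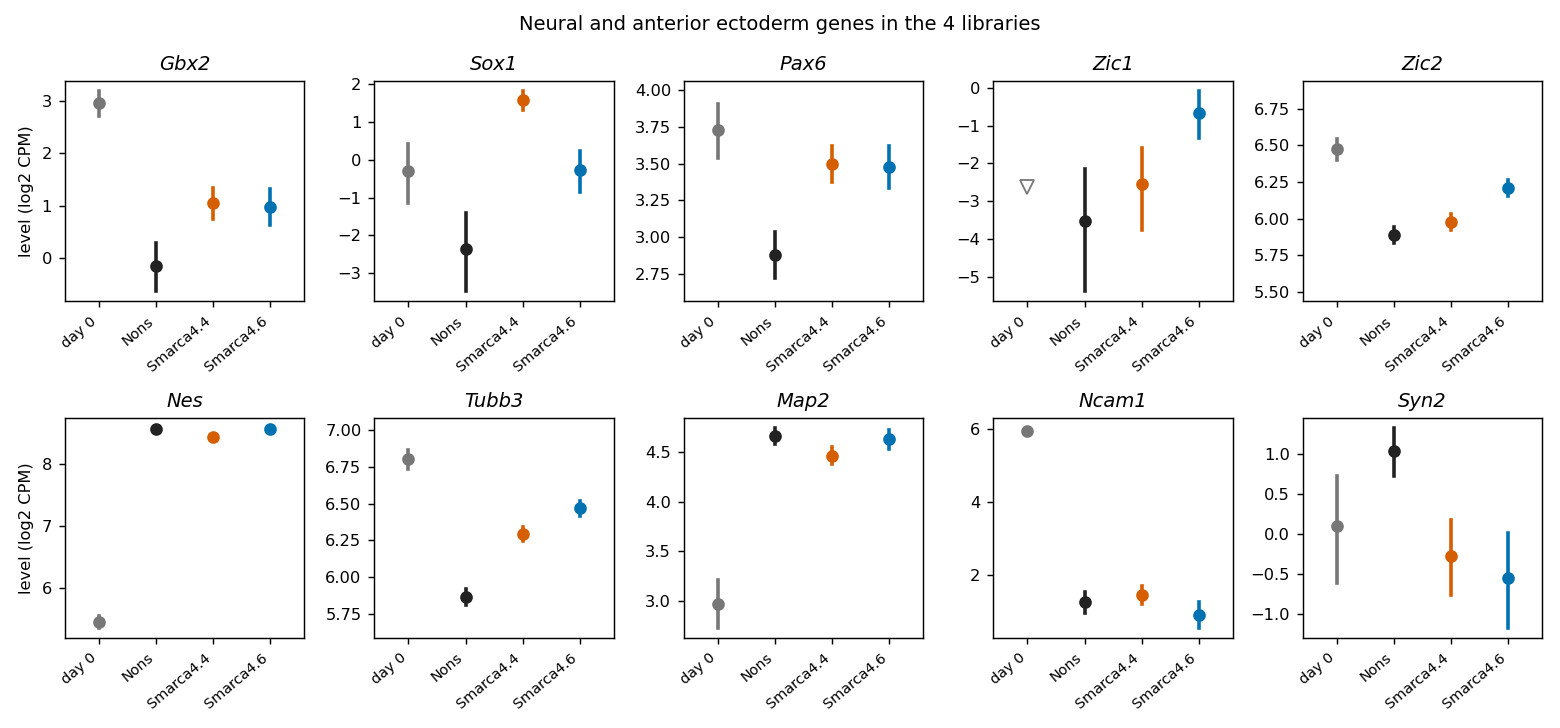
Level (log2 CPM, vertical axis, scaled separately for each gene) of the 10 genes in the day 0, Nons, Smarca4.4 and Smarca4.6 libraries. Points are single libraries, bars are exact 95% counting intervals, and the open triangle for Zic1 marks the 3-read limit of the day 0 library, which had 0 reads. The 5 transcription factors in the upper row were all higher in both knockdown libraries than in Nons, and Syn2 was lower in both.

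Levels between genes were compared per kilobase of exon, with exon lengths of the GENCODE M21 annotation, which may differ from the gene models used for counting. At day 0 the order was led by Tubb3 at 59.7 CPM per kilobase and Zic2 at 30.8. Ncam1 (7.13) and Nes (6.81) followed and overlapped in their counting intervals. Gbx2 (3.56), Pax6 (1.13) and Map2 (0.477) came next. Sox1 (0.167) and Syn2 (0.153) overlapped, and Zic1 was at 0. In Nons, Nes led at 59.2, above Tubb3 (31.1) and Zic2 (20.6), and the other 7 genes lay between 0.0154 (Zic1) and 1.54 (Map2). The 3 leading genes kept these ranks in both knockdown libraries. The lower ranks changed: Sox1 was at rank 9 in Nons (0.0407 CPM per kilobase, overlapping Zic1 in its interval) and at rank 7 in Smarca4.4 (0.615). Syn2 was at rank 7 in Nons (0.292, with intervals that overlapped those of Gbx2 above it and Ncam1 below it). It was at rank 9 in Smarca4.4 (0.118) and at rank 10 in Smarca4.6 (0.0974), where its interval overlapped that of Zic1 (0.111).

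**Figure D2:**
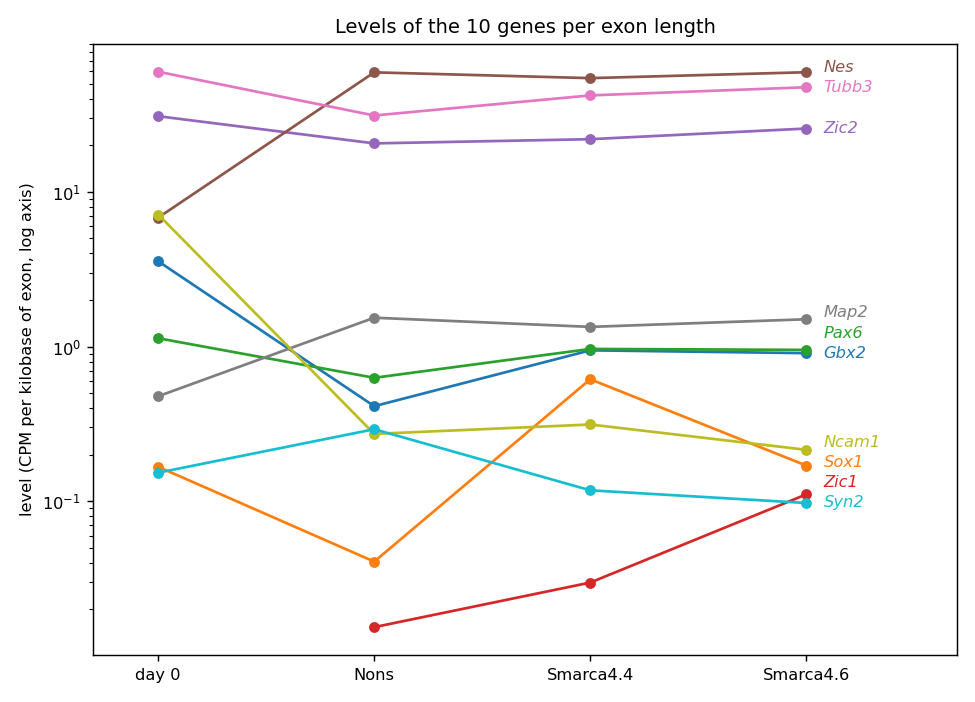
Level per exon length (CPM per kilobase, log axis) of the 10 genes in each of the 4 libraries, with lines joining the values of a gene. Zic1 is not drawn at day 0, where it had 0 reads. Nes was 6.81 at day 0 and between 54.3 and 59.3 in the 3 day 6 libraries, and Syn2 was lower in both knockdown libraries than in Nons.

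Against Nons, the 5 transcription factors (Gbx2, Sox1, Pax6, Zic1 and Zic2) were higher in each knockdown library, Tubb3 was higher, Nes, Map2 and Ncam1 lay between -0.34 and 0.20 of Nons on the log2 scale, and Syn2 was lower. Of all genes, 56.5% were higher than Nons in the Smarca4.4 library and 58.9% in the Smarca4.6 library. Both comparisons share the Nons library. Gbx2 and Syn2 were chosen for these 2 differences, so nothing is read from their place among all genes. Of the 4 factors other than Gbx2, the counting interval lay above 0 for 3 in Smarca4.4, Zic1 being the exception, and for 4 with the other hairpin. It lay above 0 for 34.4% and 39.6% of the genes that passed the filter, and for 19.8% and 22.4% of all listed genes, Sox1 and Zic1 being in the latter alone. At least 2-fold higher were Gbx2 and Sox1 in Smarca4.4, and Gbx2, Sox1 and Zic1 in Smarca4.6. The share of all genes at least 2-fold higher was 0.882% and 1.03% among those that passed the filter, and 5.21% and 4.94% among all listed genes, which is the background for Sox1 and Zic1. With a pseudocount of 1 CPM, which damps low levels, Sox1 in Smarca4.4 alone stayed at least 2-fold higher (1.73), with Gbx2 at 0.69 and 0.65, and Sox1 and Zic1 at 0.61 and 0.58 in Smarca4.6. Syn2, chosen as the gene that was lower, was at least 2-fold lower in both libraries as deposited and not with the pseudocount (-0.74 and -0.86). For reference, 0.309% of genes that passed were 2-fold lower with the first hairpin and 0.799% with the other. The median difference from Nons over all 10 genes was 0.32 (Smarca4.4) and 0.46 (Smarca4.6). Without Gbx2 and Syn2 the remaining 8 gave the same 2 values. This was fixed by the choice of 1 gene above the middle and 1 below it, so nothing is read from it. Over the 8 of the 10 genes that passed the filter it was 0.15 and 0.16. The median of all genes was 0.038 and 0.064.

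**Figure D3:**
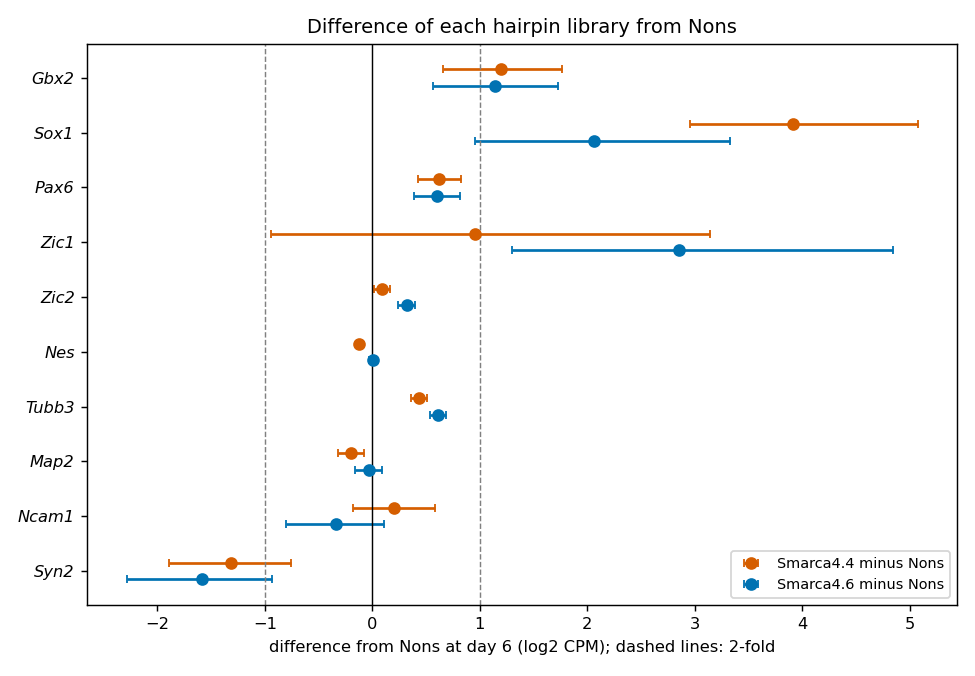
Difference of Smarca4.4 and of Smarca4.6 from Nons at day 6 (log2 CPM, horizontal axis) for each gene, with exact 95% counting intervals as bars and 2-fold marked by dashed lines. Sox1 lay furthest above Nons in Smarca4.4 (3.92), Zic1 in Smarca4.6 (2.85), and Syn2 lay below Nons in both (-1.31 and -1.58).

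Gbx2 (ENSMUSG00000034486, chromosome 1, 89927962 to 89933290, minus strand) stood at a log2 CPM of 2.95 at day 0 (144 reads) and -0.16 in Nons (41 reads), against 1.04 and 0.98 in the Smarca4.4 and Smarca4.6 libraries (97 and 72 reads). It was highest at day 0, and both knockdown libraries lay between day 0 and Nons. The log2 difference from Nons was 1.20 (0.66 to 1.76) with Smarca4.4, and with Smarca4.6 it was 1.14 (0.57 to 1.73). These reads cannot be assigned to Gbx2 with certainty. The noncoding gene D130058E05Rik lies on the opposite strand, its exons cover 946 bases (43.5%) of the Gbx2 exons, and the strand setting of the counting is not given. The deposited Gbx2 interval also runs 2111 bases past the GENCODE M21 annotation at its high coordinate, which is upstream of the Gbx2 start. It takes in the whole of D130058E05Rik. D130058E05Rik had 60, 15, 44 and 28 reads in the same order, so it too was lowest in Nons. The Gbx2 promoter window shown above lies within the deposited Gbx2 interval.

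Sox1 (chromosome 8, 12395295 to 12400126, a single-exon gene on the plus strand) had 15 reads at day 0, 9 in Nons, and 140 and 30 in the Smarca4.4 and Smarca4.6 libraries, which is a log2 CPM of -0.31, -2.35, 1.57 and -0.28 in that order. It was lowest in Nons, and Smarca4.4 exceeded every other library, day 0 included. Above Nons it stood by 3.92 (2.95 to 5.08) with Smarca4.4, and by 2.06 (0.95 to 3.32) with the other hairpin. Between the hairpins there was a further difference of 1.85 (1.28 to 2.47), and 4.31% of all listed genes were at least 2-fold higher in Smarca4.4 than in Smarca4.6. The transcript Sox1ot, which spans Sox1 on the same strand and is listed as Gm5607, had at most 1 read in any library.

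Pax6 (chromosome 2, 105668896 to 105703160, plus strand) was at a log2 CPM of 3.73 at day 0, against 2.88 in Nons (246 and 336 reads) and 3.50 and 3.48 with the Smarca4 hairpins (532 and 406 reads). Both knockdown libraries lay above Nons by nearly the same amount and below day 0. The log2 difference was 0.62 (0.42 to 0.82) and 0.60 (0.39 to 0.81). Pax6 was not 2-fold different from Nons in either.

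Reads of Zic1 (chromosome 9, 91358058 to 91365810, minus strand) numbered 0 at day 0 and 4 in Nons, against 8 and 23 with the Smarca4.4 and Smarca4.6 hairpins, which is at most 0.630 CPM. Only Smarca4.6 was clear of Nons by counting error, with a difference of 2.85 (1.30 to 4.84), since the interval for Smarca4.4 ran from -0.94 to 3.14 around 0.96. Its relative Zic2 (chromosome 14, 122475435 to 122479852, plus strand) was at 20.6 CPM per kilobase in Nons where Zic1 was at 0.0154. Its log2 CPM was 6.47 at day 0 and 5.89 in Nons, with 5.98 and 6.21 in the knockdown libraries. Zic2 was highest at day 0 and lowest in Nons, and the knockdown libraries exceeded Nons by 0.090 (0.015 to 0.17) and 0.32 (0.24 to 0.40). Zic5, which neighbours Zic2 on the other strand, had differences of 0.17 (0.10 to 0.25) and 0.22 (0.14 to 0.30).

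Among the cytoskeletal genes, Nes (chromosome 3, 87971078 to 87980451, plus strand) showed the largest change from day 0 and almost none with the hairpins. From a log2 CPM of 5.45 at day 0 it reached 8.57 in Nons, with 8.44 and 8.57 in the Smarca4.4 and Smarca4.6 libraries. The 3 day 6 libraries lay close together and 3.12 (3.02 to 3.22) separated Nons from day 0. The hairpins differed from Nons by -0.12 (-0.15 to -0.093) and 0.0027 (-0.030 to 0.035), and centring on the autosomal median turned the latter to -0.059.

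Tubb3 (chromosome 8, 123411424 to 123422015, plus strand) was at a log2 CPM of 6.80 at day 0 and of 5.86 in Nons, and at 6.29 and 6.47 with the Smarca4.4 and Smarca4.6 hairpins. Both knockdown libraries lay between Nons and day 0, with differences from Nons of 0.43 (0.36 to 0.50) and 0.61 (0.53 to 0.68). Other beta-tubulins at high levels did not share differences of this size. Tubb5 had differences of -0.21 and -0.15 and Tubb2b of -0.24 and -0.030. Tubb4b was at -0.0013 and 0.11, and Tubb6 at 0.062 and -0.15. Of 6 other beta-tubulins that passed the filter, 2 were higher and 4 lower than Nons in each library.

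Map2 (listed as Mtap2, chromosome 1, 66175273 to 66442583, plus strand) stood at 2.97 log2 CPM at day 0 and at 4.66 in Nons, and the Smarca4.4 and Smarca4.6 libraries were at 4.46 and 4.63. As with Nes, the day 6 libraries stood together above day 0. The difference from Nons was -0.20 (-0.32 to -0.075) and -0.033 (-0.16 to 0.094). Of 7 other microtubule-associated protein genes, 2 were higher than Nons with the first hairpin and 4 with the other. Map1b, which binds microtubules of growing axons, was higher in both (0.32 and 0.36).

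Ncam1 (chromosome 9, 49504361 to 49798922, minus strand) was at a log2 CPM of 5.95 at day 0 and of 1.24 in Nons (1149 and 108 reads), with 1.44 and 0.90 in the knockdown libraries (128 and 68 reads). Of the 10 genes it had the largest difference between Nons and day 0, at -4.71 (-5.01 to -4.42), and all 3 day 6 libraries were low. The antisense gene Gm11149 shares 417 bases (4.81%) of its exons. The knockdown libraries stood on opposite sides of Nons, at 0.20 (-0.18 to 0.59) and -0.34 (-0.80 to 0.11), each within counting error of it.

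Syn2 (chromosome 6, 115134902 to 115282626, plus strand) had 20 reads at day 0, 94 in Nons, and 39 and 25 with the Smarca4.4 and Smarca4.6 hairpins, which is a log2 CPM of 0.10, 1.04, -0.27 and -0.55 in that order. It was highest in Nons, and both knockdown values lay below that of day 0, with counting intervals that overlapped it (0.588 to 1.13 and 0.443 to 1.01 CPM against 0.657 to 1.66). They stood at 40.3% and 33.3% of Nons, differences of -1.31 (-1.89 to -0.76) and -1.58 (-2.28 to -0.94). Timp4, which lies inside Syn2 on the opposite strand, had at most 2 reads in any library. The related synapsin Syn1 was higher than Nons in both knockdown libraries (0.54 and 0.53).

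The genes closest to Gbx2 and Syn2 in pattern were sought over 4 libraries, by the distance between their 3 differences (Nons from day 0 and each hairpin from Nons). Nearest to Gbx2 were Nefh, the heavy neurofilament protein of axons (-3.12, 1.13 and 1.11), Timp1, an inhibitor of matrix proteases (-3.06, 1.06 and 0.96), and Cspg5, a neural proteoglycan (-3.34, 1.19 and 1.28). Nearest to Syn2 were Gm2382 (1.11, -1.04 and -1.39), Stom, a membrane protein (0.72, -1.16 and -1.24), and Nmnat2, an NAD synthesis enzyme of axons (0.73, -0.98 and -1.24).

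Among genes that passed the filter, wider lists of neural genes did not move in 1 direction with the hairpins. The 5 factors above include Sox1 and Zic1, which did not pass it, so the filters differ. Genes of these lists under the filter are not in the counts and medians below. At few reads, several of them were higher in both knockdown libraries, with counting intervals wholly above Nons in each for Gbx1 and Chl1. Others were not, and Zic4, Dcx and Snap25 were lower than Nons in both, within counting error. Of 20 further neural plate and anterior ectoderm factors, 9 passed the filter, of which 3 were higher than Nons with Smarca4.4 and 5 with the other hairpin. Their median difference was -0.21 and 0.063. Within the list Otx2, which sets the forebrain and midbrain side of the boundary opposite Gbx2, was lower in both (-0.42 and -0.35) and Pou3f1, a factor of early neural commitment, was higher in both (0.37 and 0.36). Irx3, a homeobox factor of the neural tube, was 2-fold higher in Smarca4.4 (1.14, 0.71 to 1.59) and close to it in Smarca4.6 (0.96, 0.50 to 1.43). Of 12 midbrain-hindbrain boundary genes 4 passed, with medians of 0.00050 and 0.52. Fgf8, the signal released by that boundary, lay on opposite sides of Nons at -0.80 (-1.36 to -0.25) with Smarca4.4, and at 1.65 (1.26 to 2.05) with Smarca4.6.

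Of 12 genes of neural progenitors and radial glia 7 passed, with medians of -0.096 and -0.17. The receptor Notch1 was lower (-0.65 and -0.86) and the filament gene Vim higher (0.49 and 0.74) in both knockdown libraries. Of 26 proneural and neuronal genes 13 passed, of which 6 and 7 were higher, with medians of -0.11 and 0.19. The counting interval lay above 0 for 5 and 7 of the 13, against 34.4% and 39.6% of all genes, and below 0 for 5 and 2. Nefl and Nefm, the light and medium neurofilament genes, were slightly below Nons in both libraries (-0.16 and -0.19 for Nefl, -0.14 and -0.058 for Nefm). Elavl2 was higher in both (0.15 and 0.19), and Stmn2 lay on opposite sides of Nons (-0.14 and 0.35). Nrcam, an adhesion molecule of axons, was 2-fold lower in Smarca4.4 (-1.36) and not in Smarca4.6 (-0.13). Of 18 synaptic genes 12 passed, of which 5 and 4 were higher, with medians of -0.071 and -0.19. Pclo, a scaffold of the presynaptic zone, was at 0.64 and 1.01, whereas the postsynaptic scaffold Dlg4 was at -0.24 and -0.48.

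Insm1, a zinc finger factor of newly formed neurons and neuroendocrine cells, did not pass the filter but differed more from Nons in each knockdown library than any gene named above. Its reads numbered 1 at day 0 and 18 in Nons, against 299 and 136 with the Smarca4.4 and Smarca4.6 hairpins. It was low in Nons and well above it in both knockdown libraries, by 4.01 (3.33 to 4.79) and 3.24 (2.53 to 4.04), and the larger difference was in Smarca4.4, as for Sox1.

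**Figure D4:**
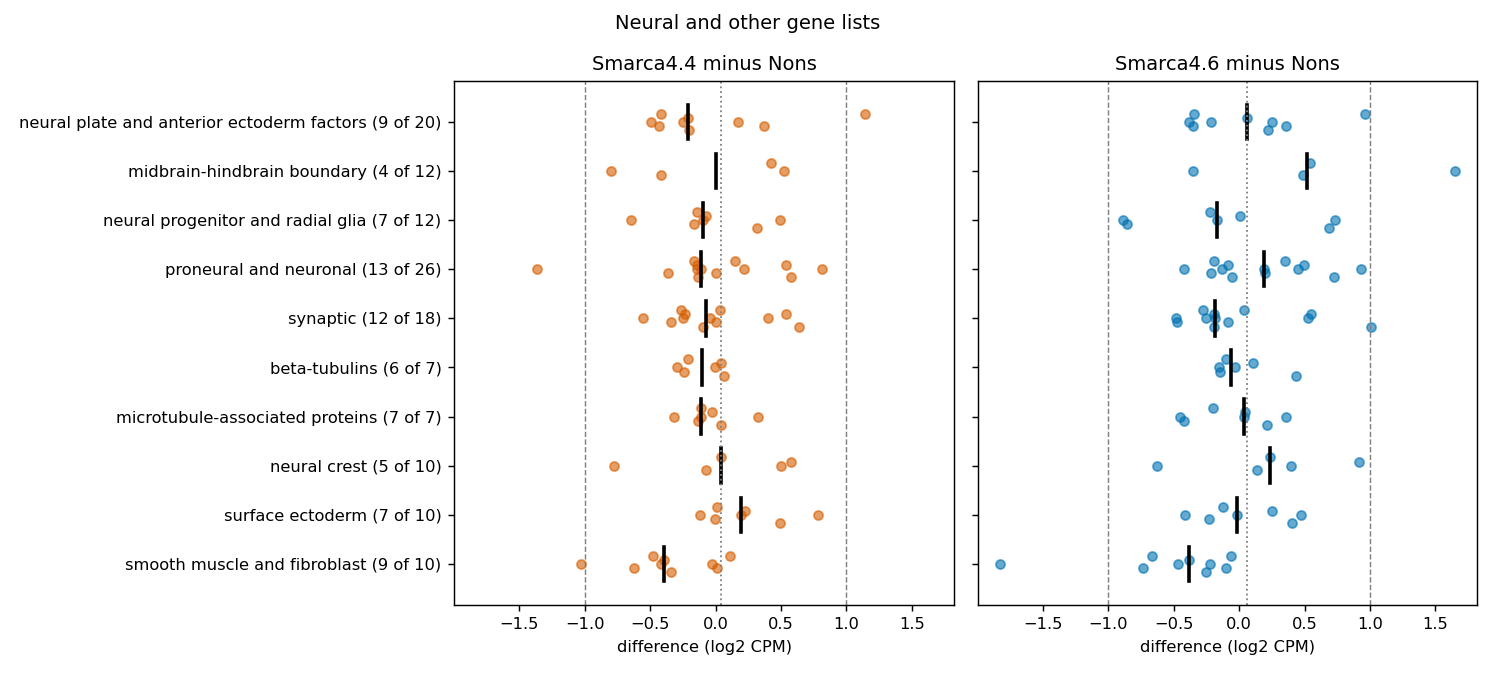
Difference from Nons (log2 CPM, horizontal axis) of the genes that passed the filter in 10 lists, with Smarca4.4 on the left and Smarca4.6 on the right. Points are genes, black bars are list medians, the dotted line is the median of all genes, dashed lines mark 2-fold, and brackets give the genes that passed and those in the list. The neural lists spread to both sides of Nons, and the smooth muscle and fibroblast list lay lowest by its median in both.

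Markers of other lineages were read beside these results. In Nons the epithelial keratin Krt8 was at 492 CPM per kilobase, where Sox1 was at 0.0407 and Pax6 at 0.628. The pluripotency genes Pou5f1 and Nanog, which mark the labelled stem cells, stood at a log2 CPM of 9.50 and 9.96 at day 0, and at 9.84 and 5.92 in Nons. Of 11 pluripotency genes, all past the filter, 10 were at least 2-fold lower in Nons than at day 0, against 12.3% of all genes. Pou5f1 was the 1 that was higher, and the median difference of the 11 was -4.98. Summed over 10 surface ectoderm and epithelial markers the level was 540 CPM at day 0 and 2853 in Nons, and 2992 and 2601 with the Smarca4.4 and Smarca4.6 hairpins. Most of the Nons sum came from Cdh1 (978 CPM), Krt8 (964), Krt18 (554) and Epcam (291), so it does not speak for each marker. Of the 7 of the 10 past the filter, 5 were higher and 2 lower in Nons than at day 0. The 10 smooth muscle and fibroblast markers summed to 1350, 1320, 989 and 869 CPM, but fibronectin (Fn1) alone made 1341 CPM of the day 0 sum and 157 in Nons. Of the 9 that passed, 8 were higher in Nons than at day 0 (median 4.14, against 0.031 over all genes). With the Smarca4.4 and Smarca4.6 hairpins 7 and 9 were lower than in Nons, and the counting interval lay below 0 for 6 and 6. Over all genes that passed the filter, 56.5% and 58.9% were higher than Nons. Acta2, smooth muscle actin, was among 3 of the 10 with 0 reads at day 0, and was at -1.03 and -1.83 against Nons. The 10 neural crest markers summed to 54.5, 35.5, 42.2 and 42.6 CPM, of which Ngfr, a neurotrophin receptor, made 40.9 at day 0 and 1.27 in Nons. Of the 5 that passed, 3 were higher in Nons than at day 0 (median 0.95), and 3 and 4 were higher with the hairpins than in Nons, with medians of 0.039 and 0.24. The part of these lineages in the neural values was not tested.

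The last lists were regulators with known roles in neural genes. BAF complexes exchange subunits as progenitors become neurons, and REST with its partners represses neuronal genes outside neurons. Of 5 neuron-type BAF subunit genes 3 passed, with medians of 0.014 and 0.16, and Dpf1 was higher in both (0.38 and 0.91). All 5 REST-related genes passed, with medians of 0.010 and 0.20, and Rest itself was lower in both (-0.30 and -0.35).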

How the data were processed

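RNA-seq was performed on 4 libraries with 1 library per group. Per the methods of the authors, trim_galore removed adapters from the paired-end reads, hisat2 (tophat is named as a second option) mapped them to mm10 with the variant positions of FVB and CAST masked, and SeqMonk quantified each gene. The strand setting is not given in the sources used here. The deposited values are log2 CPM per gene, with 0 reads written as 0.9 of 1 read, alleles combined.

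From these values, reads per gene and library totals were recovered: all values of up to 1000 reads, and at least 99.94% of the values above 0 in each library, were whole to within 0.05 reads. Differences are between log2 CPM values as deposited, intervals are Clopper-Pearson (ratios) or exact Poisson, and genes with a mean log2 CPM of at least 0 were kept for medians and shares. With 1 library per group no test across genes was made. Exon lengths and overlaps came from GENCODE M21 (GRCm38, the assembly of mm10). The steps were tested on simulated reads. Alternatives were a filter at 3, no filter, a pseudocount of 1 CPM and centring on the autosomal median. The 10 genes, the 16 further lists and the rule for named genes (list members at least 2-fold different with either hairpin at 1 CPM or more, up to 4 at the highest level per list, and the 3 nearest in pattern to Gbx2 and to Syn2) were chosen with earlier results of these data known. List genes shown were taken from those that met this rule, except Gbx1, Chl1, Zic4, Dcx, Snap25 and Klf2, which were added as examples. Tools were matplotlib 3.10.9, pandas 2.3.3, scipy 1.17.1 and numpy 2.4.6 under Python 3.11.15.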

Additional observations from a re-analysis of the deposited data

Results flagged for a closer look

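The libraries are labelled female, and the Y-linked genes Ddx3y, Uty, Eif2s3y and Kdm5d together had 0 reads at day 0 but 106 in the Nons library, and 156 and 165 with the Smarca4.4 and Smarca4.6 hairpins. These are the libraries compared above, and the part of this signal in their differences was not tested. Kdm5d had 0 reads in all 4 libraries.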

How the results depend on the processing

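No paired analysis was possible because there was a single library in every group. For the medians and counts over the 8 genes that passed the filter and the shares of all genes, 48 of 72 alternative values stayed in place and 24 moved. A filter at a mean log2 CPM of 3 left 5 of the 10 genes, none of them 2-fold lower from day 0 to Nons (0 against 2 as reported), and 0 higher and 0 lower against Nons in either knockdown library (1 each as reported). It put 0.166% of all genes higher and 0.0208% lower in Smarca4.4, and 0.177% and 0.218% in Smarca4.6. Without a filter, which admits Sox1 and Zic1, 2 genes were higher in Smarca4.4 and 3 in Smarca4.6, with 5.21% of all genes higher and 3.51% lower in Smarca4.4, 4.94% and 3.87% in Smarca4.6, and 41.8% lower from day 0 to Nons, where differences between values written for 0 reads enter. A pseudocount of 1 CPM left 0 of the 8 genes higher and 0 lower by 2-fold in each knockdown library, and 0.249% and 0.0829% of all genes in Smarca4.4 and 0.2865% each way in Smarca4.6. Sox1 in Smarca4.4 kept its 2-fold call and those of Gbx2, Syn2, and Sox1 and Zic1 in Smarca4.6, were lost, with no change of direction.

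Of 60 alternative values of single genes 50 stayed inside their intervals, 9 moved and 1 changed sign: Nes in Smarca4.6 under centring (-0.059). Centring subtracted 0.032 (Smarca4.4) and 0.061 (Smarca4.6). With a pseudocount of 1 CPM the Sox1 differences from Nons were 1.73 and 0.61, that of Zic1 in Smarca4.6 was 0.58 and those of Syn2 -0.74 and -0.86. From day 0 to Nons the pseudocount put Sox1 at -0.59 against -2.04 as reported, and its 2-fold call was lost. The cause of these changes is the construction of the alternatives. Depth limits Sox1, Zic1, Gbx2 and Syn2, each with at most 144 reads in any library.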

Other observations

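Other lineages gave a mixed picture beside the neural genes. Of 12 mesoderm genes 6 passed the filter, with medians of 0.11 in Smarca4.4 and 0.71 in Smarca4.6. T (brachyury), the primitive streak factor, had 109 reads at day 0 and 18 in Nons, against 12 and 91 with the Smarca4.4 and Smarca4.6 hairpins, so it exceeded Nons in Smarca4.6 (2.66, 1.92 to 3.48) and not in Smarca4.4 (-0.63, -1.81 to 0.51). Mixl1, a second primitive streak factor, had 13 reads in Nons and 26 and 42 with the hairpins. Fgf8, which is made by the primitive streak as well as by the neural boundary, was likewise highest in Smarca4.6. Hand1, a factor of extraembryonic and lateral mesoderm, was higher in both (1.59 and 0.77). Eomes (-0.20 and -0.31) and Msx1 (-0.56 and -0.40) of the same list went the other way with each hairpin, and their counting intervals lay below 0. Of the 6 mesoderm genes that passed, 3 were higher with the first hairpin and 4 with the other. Of 10 endoderm genes 2 passed, both higher in each knockdown library, with medians of 0.34 and 0.47. Over all genes that passed, 56.5% and 58.9% were higher, so 2 genes do not set the list apart. The counting interval of Sox17 in Smarca4.4 included 0 (-0.011 to 0.88). Under the filter, Cxcr4 was higher in both, with counting intervals above Nons. Gata6 lay on opposite sides of Nons (0.79 and -0.78), the latter within counting error.

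Of 10 skeletal muscle genes 3 passed, with medians of -0.35 and -0.089, and Acta1, skeletal actin, was lower in both (-1.36 and -2.33). All 11 pluripotency genes passed, and their medians were 0.0036 and -0.065 against Nons. Of the 11, 6 were higher than Nons with the first hairpin and 5 with the other. The counting interval lay above 0 for 2 and 1 of them, and below 0 for 4 and 4. Klf2 was higher with each hairpin (0.98, 0.65 to 1.32, and 0.33, -0.059 to 0.71), and Pou5f1 lay on opposite sides of Nons (-0.38 and 0.10). Tbx3 was 2-fold lower in Smarca4.6 (-1.12, -1.84 to -0.44), while Nanog was lower in both (-0.36 and -0.39).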
